A study of Mus musculus with 6 samples.

Results

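Intermediate filament genes of glia, neurons and the nuclear envelope were followed in ribosome-bound mRNA from astrocytes of the diencephalon and of cortical grey matter. The 10 genes were chosen by symbol: the glial genes Gfap, Vim and Nes, the neuronal genes Nefl, Nefm, Nefh and Ina, and the nuclear lamin genes Lmna, Lmnb1 and Lmnb2. All 10 are among the 23955 genes of the deposited tables, and 9 of them, all but Nes, passed the filter on low counts.

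The mice were C57BL/6 of both sexes, aged 3 months, with the genotype Slc1a3 +/- GFP+ Rpl22HA fl/fl. One Slc1a3 allele carries the tamoxifen-inducible Cre recombinase, so every animal of both groups lacks one intact copy of this glutamate transporter gene, and a CAG-driven EGFP reporter is also present. Tamoxifen was given by gavage at 9 weeks, 3 times at intervals of 48 hours and at 0.4 mg per g body weight, and switches the ribosomal protein Rpl22 to a form with a haemagglutinin tag in cells that express the recombinase. Tagged ribosomes were then purified with their mRNA. Of the libraries, 3 came from cortical grey matter, after removal of the white matter and the meninges. The other 3 came from diencephalon, with the tissue bordering the third ventricle left out. Each library pooled 3 mice. There was no untreated group, and unpurified tissue RNA was not analysed here.

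Intermediate filaments are rope-like polymers of proteins that share a coiled-coil rod. GFAP is the filament protein by which astrocytes are usually recognised, vimentin joins it in immature and reactive astrocytes and is also made by endothelial, ependymal and fibroblast cells, and nestin marks neural progenitors. In neurons the light, medium and heavy neurofilament subunits and alpha-internexin build the filaments that fill and widen axons. Lamins line the inner nuclear membrane of nearly all cells, the A-type mainly in differentiated and stiff tissues and the B-type more broadly.

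Expected counts summed to between 1733140 and 2334240 per library. Levels are given either as CPM, counts scaled to the library total and by TMM factors, or as the deposited TPM, which also corrects for transcript length. In CPM, 3 counts were worth 1.31 to 1.86, the level up to which a gene without counts could go unseen. Among the cortical libraries, replicate 3 was the most distant: its counts differed from those of replicates 1 and 2 by a chi-square of 6.81 and 5.91 per degree of freedom, while the latter pair differed by 2.59. None of the 15 astrocyte markers was at 0 in all libraries, and their summed level was 19685 to 22990 CPM in diencephalon and 28561 to 35883 CPM in cortical grey matter. Of these markers 1 was higher, 6 were lower and 8 did not pass. None of the 14 pan-neuronal markers was at 0 in all libraries either, and their summed level was 3152 to 3346 CPM in diencephalon and 4414 to 6079 CPM in cortical grey matter, the highest value being that of cortical replicate 3. The tagged gene Rpl22 was at 22.9 ± 3.27 CPM against 27.2 ± 4.01 CPM (SD, n = 3 each).

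The comparison asked which of these genes differ between the regions, and whether glial and neuronal members move alike. Of the 9 tested members, 2 were lower in diencephalon, the glial genes Gfap and Vim, and 1 was higher, the neuronal gene Ina (edgeR, adjusted p under 0.05 over all 10568 genes tested by the method of Benjamini and Hochberg). Over all genes, 29.6% were called in either direction, 14.9% as higher and 14.8% as lower. The share of called members, 33.3%, was thus near that of all genes. The 3 neurofilament subunits and the 3 lamins did not pass. In CPM, regions were separate without overlap for 4 of the 9 members, or 44.4%, against 42.6% of all genes tested. Nefl, Gfap and Vim lay below in diencephalon and Ina above, where 20.8% of all genes lay below and 21.8% above.

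Promoter sequences are shown for the 3 genes that passed. Each run is the 250 bases before the start of the gene, read 5′ to 3′ on the strand of the gene, from RefSeq on GRCm38.p6, which is not the build of the deposited tables. Capitals mark matches on either strand to TATAAA, the core of the TATA box, to CCAAT, and to GGGCGG, the GC box.
Gfap, chr11:102897201-102897450, minus strand: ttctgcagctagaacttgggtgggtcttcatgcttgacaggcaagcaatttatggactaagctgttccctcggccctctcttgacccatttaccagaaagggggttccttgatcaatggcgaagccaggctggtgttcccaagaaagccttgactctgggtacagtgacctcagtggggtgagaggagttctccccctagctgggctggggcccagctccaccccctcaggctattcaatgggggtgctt
Vim, chr2:13574061-13574310, plus strand: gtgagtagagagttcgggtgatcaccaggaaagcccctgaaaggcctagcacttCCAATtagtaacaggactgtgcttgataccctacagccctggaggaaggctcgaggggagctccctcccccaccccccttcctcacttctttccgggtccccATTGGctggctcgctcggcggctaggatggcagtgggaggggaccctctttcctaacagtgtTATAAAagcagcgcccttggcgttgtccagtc
Ina, chr19:47014431-47014680, plus strand: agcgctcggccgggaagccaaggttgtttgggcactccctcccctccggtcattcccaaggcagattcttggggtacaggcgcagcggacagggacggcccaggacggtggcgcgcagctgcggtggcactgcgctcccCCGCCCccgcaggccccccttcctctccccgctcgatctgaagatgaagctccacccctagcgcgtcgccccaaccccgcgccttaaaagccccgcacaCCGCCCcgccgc
The Vim window held 1 match to TATAAA, beginning 32 bases before the start, and 2 to CCAAT, beginning 196 and 94 bases before it. The Ina window held 2 matches to GGGCGG, beginning 111 and 12 bases before the start. The Gfap window had no match to these 3 motifs. Of 32851 promoter windows of the same length, 12.4% held TATAAA, 33.8% CCAAT and 32.7% GGGCGG. The motifs were searched on both strands and do not overlap in these windows. These are matches of letters, not sites shown to be used. Of the 10 members, 6 had a promoter in the table; the others are Nefl, Nefm, Nefh and Lmnb1.

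Gfap was lower in diencephalon. It was at 255, 218 and 163 CPM in diencephalon replicates 1 to 3 and at 327, 350 and 284 CPM in cortical grey matter replicates 1 to 3. Every diencephalic library lay below every cortical one on this scale. The means were 212 ± 46.3 and 321 ± 33.4 CPM (SD, n = 3 each), a 1.51-fold lower level in diencephalon with a log2 difference of -0.60 ± 0.15 (SE; 95% interval -0.90 to -0.29; edgeR adjusted p = 0.00367). On the TPM scale the regions overlapped, with diencephalon replicate 1 at 362 TPM and cortical replicate 3 at 360 TPM. There Gfap did not pass (log2 difference -0.41, limma adjusted p = 0.107), but on that scale the median of all genes was itself shifted to 0.22. Relative to that median the difference was -0.63. With TPM scaled by TMM factors Gfap passed at -0.61 (limma adjusted p = 0.0365; range over all alternatives 8.99e-05 to 0.124). The deposited length of Gfap, an average over its 2 listed transcripts weighted by their estimated share, ran only from 2704 to 2711 bases over the libraries.

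Vim showed the largest difference among the tested members. It was at 33.7, 24.8 and 12.5 CPM in the diencephalic libraries and at 55.8, 78.8 and 59.6 CPM in the cortical ones. The regions did not overlap in CPM or in TPM, and diencephalon replicate 3, the lowest for Gfap, was also the lowest for Vim. The means were 23.7 ± 10.6 and 64.8 ± 12.3 CPM, 2.71-fold lower in diencephalon (log2 difference -1.44 ± 0.26 SE, 95% interval -1.98 to -0.89, edgeR adjusted p = 0.000328). Vim passed as lower under each of the 18 alternatives, with log2 differences from -1.79 to -1.14. Its size varied most with diencephalon replicates 1 and 3: without replicate 1 it was -1.79 and without replicate 3 it was -1.14 (edgeR adjusted p = 6.36e-05 and 0.00149).

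Nes had the lowest mean TPM of the 10 genes in both regions, with 3 to 18 counts per library. It had 26 counts over the diencephalic libraries and 30 over the cortical ones, with exact 95% Poisson intervals of 17.0 to 38.1 and 20.2 to 42.8 that cover counting error only. Its level was 7.95, 2.11 and 2.61 CPM in diencephalon and 1.31, 9.58 and 5.59 CPM in cortical grey matter. The values spread widely within each region and overlapped. Nes did not pass the count filter, and without a filter its log2 difference was -0.31 ± 0.52 (SE; edgeR adjusted p = 0.725). A difference between regions was not detectable at this depth and with this spread between libraries.

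**Figure D1:**
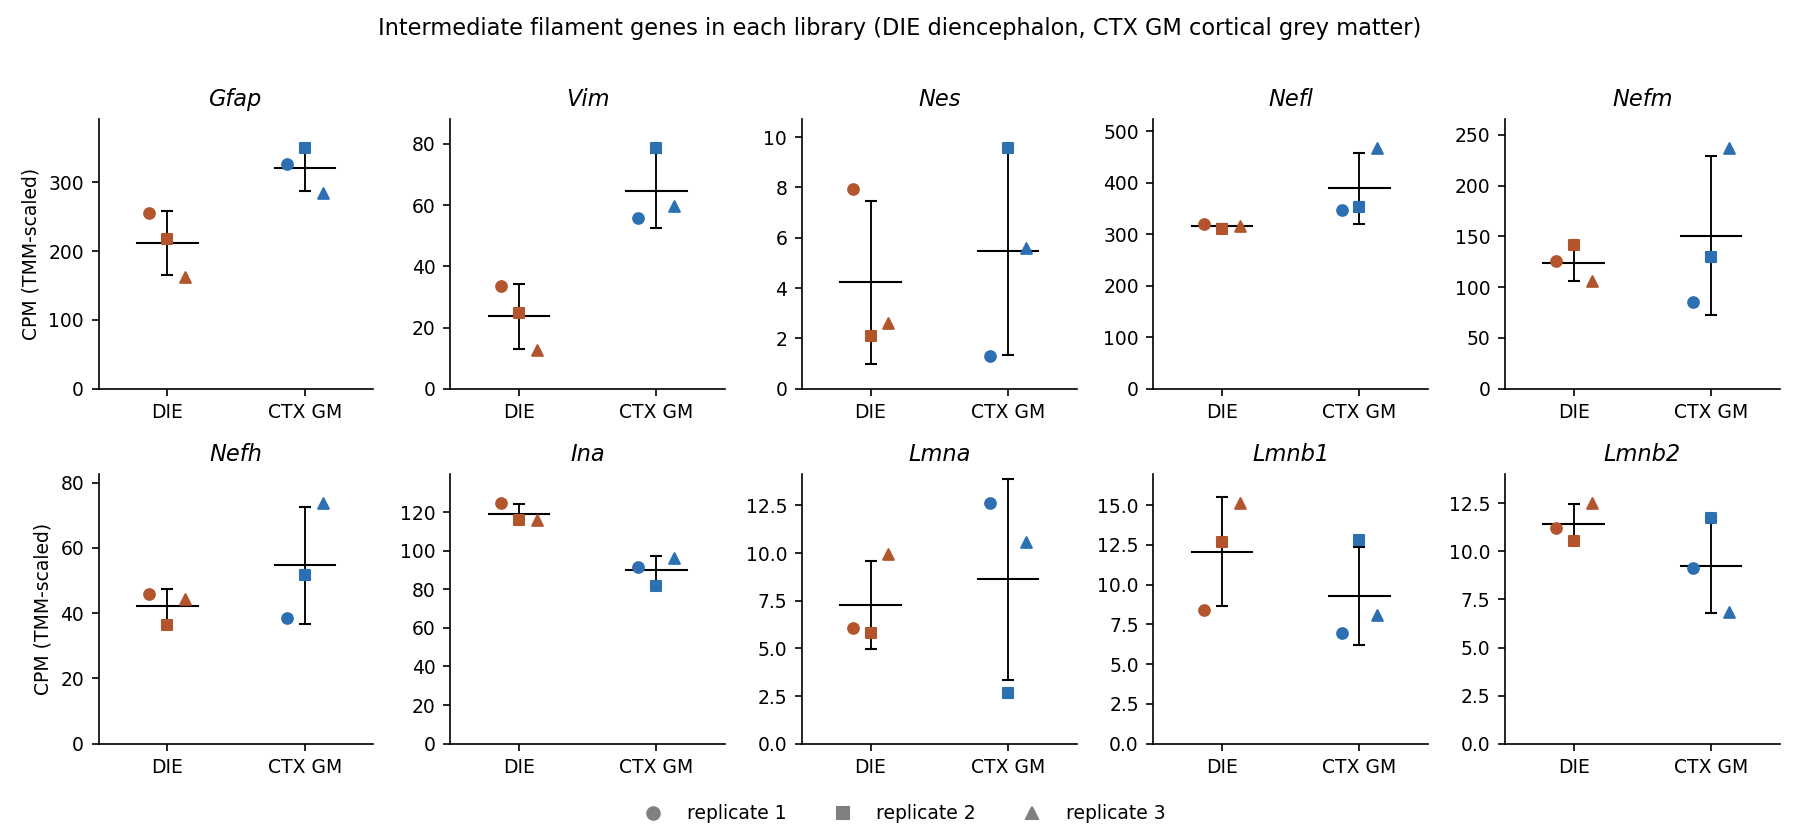
Level of each of the 10 intermediate filament genes in CPM (TMM-scaled, linear axis from 0) in the 3 diencephalic (DIE) and 3 cortical grey matter (CTX GM) libraries; symbols are replicates, the horizontal line is the mean and the bar 1 SD. Gfap, Vim and Nefl lie lower and Ina higher in every diencephalic library, while cortical replicate 3 is the highest library for Nefl, Nefm and Nefh.

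Which cells carried these transcripts cannot be read from pooled libraries, where fewer cells of a type and less RNA per cell cannot be told apart. Markers of other cell types that make vimentin differed between the regions, not all in the same direction. Of 6 tested vascular markers of 12 listed, 3 were lower and none higher in diencephalon, with sums of 91.8 to 124 CPM against 204 to 320 CPM. Of 12 meningeal and fibroblast markers, 11 were lower, with sums of 463 to 744 CPM against 3740 to 6905 CPM. No marker of these lists was without counts in all libraries. Among the lower ones, vascular Myh11 and Cdh5 and meningeal Omd and Ogn would not have passed the count filter on their diencephalic counts alone. Of other cell types, 8 of 9 tested oligodendrocyte markers were higher, 3 of 6 progenitor markers and 2 of 8 microglia markers lower. Mog, among the higher ones, would not have passed the count filter on its cortical counts alone. Of 10 ependymal and tanycyte markers 2 were tested: Foxj1, a gene of ciliated ependymal cells, was higher in diencephalon (11.5 ± 3.17 against 3.01 ± 2.34 CPM, edgeR adjusted p = 0.00455), and Col23a1 did not pass. Foxj1 passed the count filter only through its diencephalic counts. The sums of the ependymal and tanycyte list were 23.7 to 32.3 CPM against 14.9 to 30.9 CPM and overlapped. Without Col23a1 the mean sum was 1.79-fold higher in diencephalon. The part of these cells in the Vim difference was not tested. Set against the summed TPM of the 15 astrocyte markers, Vim was at 0.00343, 0.00292 and 0.00154 in diencephalon and at 0.00372, 0.00528 and 0.00491 in cortical grey matter, still without overlap. Gfap on the same base was at 0.0170, 0.0168 and 0.0131 against 0.0143, 0.0153 and 0.0153, and overlapped. This base is weighted towards its most abundant genes, first of them Slc1a2. In CPM the mean sum of the 15 markers was 1.58-fold higher in cortical grey matter, and 1.40-fold without Slc1a2. The median log2 difference of the 15 markers was only -0.16. Within a library the ratio of Vim to Gfap in TPM was 0.118 to 0.202 in diencephalon and 0.261 to 0.344 in cortical grey matter. The glial pair thus differed in proportion as well as in level, with no overlap between regions in this ratio.

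Of the neuronal members, Nefl, the light subunit that neurofilaments need for assembly, was at 320, 310 and 316 CPM in diencephalon and at 346, 353 and 468 CPM in cortical grey matter. The diencephalic libraries were nearly identical to one another, and each lay below each cortical one. The log2 difference of -0.30 ± 0.13 (SE; 95% interval -0.57 to -0.03) did not pass after adjustment (edgeR unadjusted p = 0.0324, adjusted p = 0.0904). Without cortical replicate 3, which was the highest, the difference was -0.15 (edgeR adjusted p = 0.326). In TPM the regions overlapped for Nefl, at 625 to 639 against 600 to 821.

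Nefm, the medium subunit with a long phosphorylated tail, was at 125, 141 and 106 CPM in diencephalon and at 85.5, 129 and 237 CPM in cortical grey matter. The cortical libraries spanned a wider range than the diencephalic ones and enclosed them, so that no direction held. The log2 difference was -0.26 ± 0.40 (SE; 95% interval -1.26 to 0.74; edgeR adjusted p = 0.677). Without cortical replicate 3 the sign turned, to 0.21 (edgeR adjusted p = 0.341). Its expected counts were not whole in any library (268.41 in diencephalon replicate 1, for example). RSEM gives such gene counts where reads also fit transcripts of other genes, so the level of Nefm is uncertain.

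Nefh, the heavy subunit with the longest tail, was at 45.8, 36.4 and 44.4 CPM in diencephalon and 38.4, 51.6 and 73.9 CPM in cortical grey matter. The ranges overlapped and cortical replicate 3 was again the highest. In diencephalon replicate 1 the expected count of Nefh was not whole either (97.82). Nefh did not pass (log2 difference -0.35 ± 0.21 SE, 95% interval -0.80 to 0.09, edgeR adjusted p = 0.235), and without that library the difference was -0.09 (edgeR adjusted p = 0.793).

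Ina, which encodes alpha-internexin, moved the other way. It was at 125, 116 and 116 CPM in diencephalon and at 91.6, 81.5 and 96.3 CPM in cortical grey matter, and the regions overlapped neither in CPM nor in TPM. The means were 119 ± 5.14 and 89.8 ± 7.58 CPM, 1.33-fold higher in diencephalon (log2 difference 0.41 ± 0.14 SE, 95% interval 0.12 to 0.69, edgeR adjusted p = 0.0278). The direction held under each of the 18 alternatives, with log2 differences from 0.34 to 0.61, but the call was lost under 6 of them. It was lost with DESeq2 (adjusted p = 0.0671), without diencephalon replicate 1, 2 or 3 (edgeR adjusted p = 0.0882, 0.0663 and 0.0606) and without cortical replicate 1 or 2 (0.0631 and 0.134). Without cortical replicate 3 it passed (edgeR adjusted p = 0.0149).

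**Figure D2:**
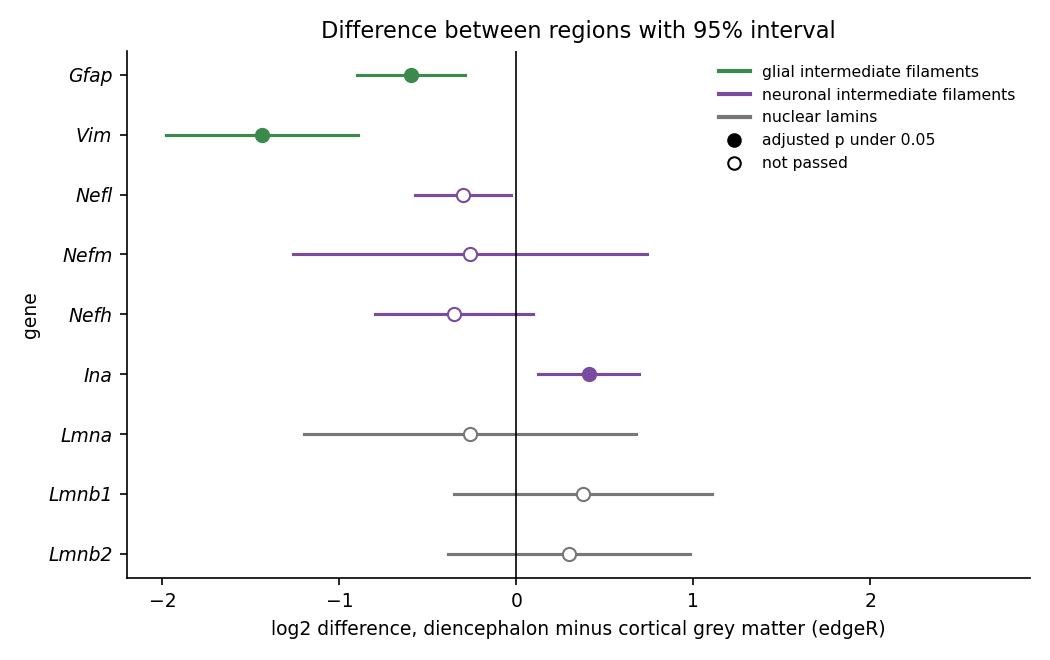
Log2 difference of the 9 tested members, diencephalon minus cortical grey matter, from edgeR, with lines for the 95% interval; colour gives the kind of filament and filled points have an adjusted p under 0.05. Gfap (-0.60) and Vim (-1.44) lie below 0 and Ina (0.41) above it, and the intervals of the lamins, Nefm and Nefh include 0.

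The neuronal genes were abundant in these libraries. In TPM, Nefl was the highest of the 10 members in both regions, at 632 ± 7.05 (SD, n = 3) in the diencephalic and 677 ± 125 (SD, n = 3) in the cortical libraries, above Gfap at 306 ± 63.0 and 401 ± 36.3. The 4 neuronal genes made up 68.7%, 71.4% and 76.3% of the summed TPM of the 10 members in the diencephalic libraries. In the cortical libraries they made up 61.0%, 59.5% and 71.7%. Cortical replicate 3, the highest of the cortical libraries, lay within the diencephalic range. In diencephalon the order was Nefl, Gfap, Ina, Nefm, Vim, Nefh, Lmnb1, Lmnb2, Lmna and Nes, and the ranges of neighbours overlapped for Vim with Nefh, Lmnb1 with Lmnb2 and Lmnb2 with Lmna. In cortical grey matter the order was Nefl, Gfap, Nefm, Ina, Vim, Nefh, Lmnb1, Lmna, Lmnb2 and Nes, with overlap of Nefm with Ina, Ina with Vim, Lmnb1 with Lmna and Lmna with Lmnb2. Vim, at 52.0 ± 22.7 TPM in diencephalon and 124 ± 21.0 TPM in cortex, came close to Nefh in the former and to Ina in the latter.

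**Figure D3:**
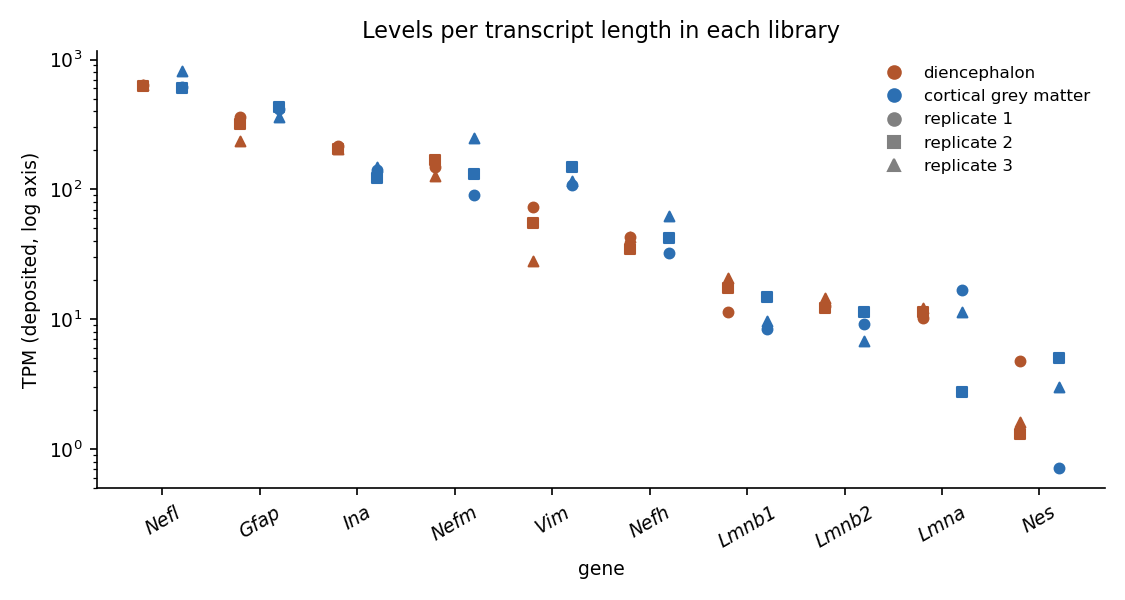
Deposited TPM (log axis) of the 10 genes in each library, ordered by the mean over all 6; colour gives the region and symbols the replicate. Nefl is highest in every library, the lamins lie between 2.75 and 20.9 TPM, and Nes is at or below 4.99 TPM.

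Of the ratios of TPM between neuronal members, that of Ina to Nefl was separate between the regions. It was 0.341, 0.328 and 0.321 in the diencephalic libraries and 0.232, 0.202 and 0.180 in the cortical ones, without overlap. The ratio of Nefm to Nefl was 0.234, 0.272 and 0.200 in diencephalon and 0.148, 0.218 and 0.303 in cortical grey matter, and that of Nefh to Nefl 0.0681, 0.0560 and 0.0670 against 0.0530, 0.0699 and 0.0754. The ranges of both subunit ratios overlapped. The ratio of Ina to Nefm, at 1.46, 1.21 and 1.61 against 1.57, 0.925 and 0.595, and that of Nefh to Nefm, at 0.206 to 0.336 against 0.249 to 0.359, overlapped too. Of the 14 pan-neuronal markers, 2 were higher, 6 lower and 6 did not pass. Relative to their summed TPM, the 4 neuronal filament genes together were at 0.228, 0.214 and 0.223 in diencephalon and at 0.150, 0.147 and 0.156 in cortical grey matter. On this base cortical replicate 3 no longer stood apart, and the regions did not overlap. Nefl alone was at 0.130 to 0.141 against 0.0990 to 0.104 and Ina alone at 0.0425 to 0.0473 against 0.0180 to 0.0242. Nefm overlapped, at 0.0281 to 0.0352 against 0.0154 to 0.0303. The filament sum itself overlapped between regions, at 1029 ± 12.4 against 1016 ± 229 TPM (SD, n = 3 each). The base differed, at 4642 ± 159 against 6707 ± 1310 TPM. In CPM the mean sum of the 14 markers was 1.57-fold higher in cortical grey matter, and 1.37-fold without Snap25, its most abundant gene. Markers of kinds of neuron differed as well. All 12 cortical excitatory neuron markers were lower in diencephalon, with sums of 1091 to 1497 CPM against 5585 to 6552 CPM. Some of them, Neurod6 and Tbr1 among these, passed the count filter only through their cortical counts. The 15 subcortical neuron markers summed to 366 to 558 CPM against 29.2 to 36.0 CPM. Of these, 5 passed the count filter and were higher. Pmch, Sim1 and Slc18a2 would not have passed it on their cortical counts alone. Slc17a6, the glutamate transporter gene of many subcortical neurons, was at 237 ± 60.0 against 16.4 ± 1.42 CPM. Of 5 tested inhibitory neuron markers 2 were higher, Slc32a1 passing the filter only through its diencephalic counts, and 1 lower. The part of these neurons in the levels of the neuronal members was not tested.

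**Figure D4:**
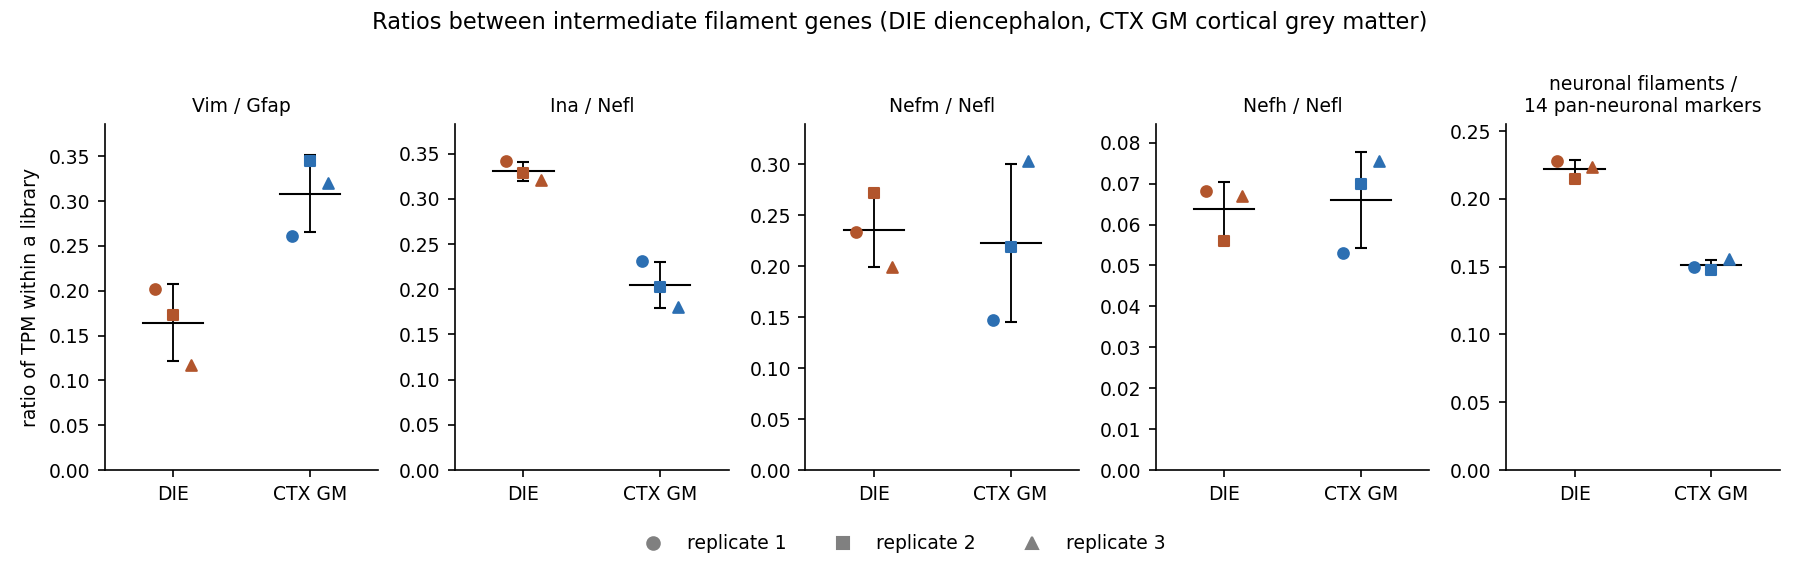
Ratios of deposited TPM within each library (linear axes from 0) for Vim to Gfap, Ina to Nefl, Nefm to Nefl, Nefh to Nefl, and the sum of the 4 neuronal filament genes to the sum of 14 pan-neuronal markers; symbols are replicates, the line is the mean and the bar 1 SD. The regions are separate for Vim to Gfap (0.118 to 0.202 against 0.261 to 0.344), for Ina to Nefl and for the neuronal sum, and overlap for Nefm and Nefh to Nefl.

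The lamins were weakly expressed and did not pass. Lmna, which encodes lamins A and C, was at 6.08, 5.80 and 9.93 CPM in diencephalon and 12.7, 2.66 and 10.6 CPM in cortical grey matter (log2 difference -0.26 ± 0.45 SE, 95% interval -1.20 to 0.67, edgeR adjusted p = 0.700). Its deposited length differed between libraries from 2058 to 3173 bases, as RSEM weighted its 3 listed transcripts on only 43 and 51 counts per region, so its TPM is uncertain. Lmnb1, a B-type lamin, was at 8.42, 12.7 and 15.2 against 6.98, 12.8 and 8.07 CPM (log2 difference 0.38 ± 0.35 SE, 95% interval -0.35 to 1.11, edgeR adjusted p = 0.453). Lmnb2, the other B-type lamin, was at 11.2, 10.5 and 12.5 against 9.16, 11.7 and 6.83 CPM (log2 difference 0.30 ± 0.33 SE, 95% interval -0.39 to 0.98, edgeR adjusted p = 0.538). The interval of Lmna reaches down to -1.20 and that of Lmnb1 up to 1.11, so sizeable differences were not detectable at this depth and spread between libraries. In TPM the diencephalic libraries were above the cortical ones for Lmnb2, at 12.1 to 14.5 against 6.84 to 11.4. On that scale, however, the median log2 difference of all genes was shifted to 0.22, and in CPM Lmnb2 overlapped. After TMM scaling of TPM its log2 difference was 0.31 and did not pass (limma adjusted p = 0.519).

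Related genes in 6 lists were read from the same fit, 95 genes of which 58 were tested. Of these, 10 were higher, 14 lower and 34 did not pass, or 41.4% called beside 29.6% of all genes. Their median log2 difference was -0.06, beside 0.01 over all genes. Among 22 other filament genes 2 were tested: Krt222, a keratin-like gene, rose to 104 ± 8.50 against 55.6 ± 13.1 CPM (edgeR adjusted p = 0.000239, log2 difference 0.92 ± 0.17 SE), and Synm, which encodes the GFAP and vimentin partner synemin, was at 16.8 ± 1.89 against 22.1 ± 4.11 CPM and did not pass. Of the other 20, 8 had no count in any library, all of them keratins.

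Of 14 cytolinkers and filament-associated genes 9 were tested, 2 were higher, 3 lower and 4 did not pass, with a median log2 difference of -0.26. Fam83h, which binds keratin filaments, was 1.77-fold higher (edgeR adjusted p = 0.0106), a call lost without diencephalon replicate 2 (0.133) or cortical replicate 1 (0.0597). That call was also lost after TMM scaling of TPM (limma adjusted p = 0.0730). The cytolinker gene Dst was 1.42-fold lower, at 794 ± 23.1 against 1131 ± 283 CPM (edgeR adjusted p = 0.0136), and Dtna, a member of the dystrophin complex, 1.41-fold lower (edgeR adjusted p = 0.00790). With deposited TPM neither passed (limma adjusted p = 0.286 and 0.104). Without diencephalon replicate 3 the call for Dst was lost, and without replicate 2 that for Dtna (edgeR adjusted p = 0.0535 and 0.0626). After TMM scaling of TPM Dst did not pass and Dtna did (limma adjusted p = 0.0802 and 0.0337).

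Of 18 nuclear envelope partners of lamins 17 were tested, 2 were higher, 2 lower and 13 did not pass, with a median log2 difference of 0.14. Mlip, which encodes a lamin A-interacting protein, was 8.25-fold lower in diencephalon. It was at 8.42, 3.69 and 6.27 against 46.7, 53.2 and 55.3 CPM (log2 difference -3.04 ± 0.27 SE). Mlip would not have passed the count filter on its diencephalic counts alone. Syne2, a nesprin that ties the nucleus to the cytoskeleton, was 2.78-fold lower, at 11.8 ± 4.31 against 33.2 ± 3.51 CPM (edgeR adjusted p = 0.000203), and did not pass on the TPM scale (limma adjusted p = 0.135). Nor did Syne2 pass after TMM scaling of TPM (limma adjusted p = 0.0993). Lemd2, an inner nuclear membrane gene, rose to 11.2 ± 2.84 against 4.22 ± 2.15 CPM (edgeR adjusted p = 0.0139), a call lost without diencephalon replicate 1 (0.0803) or cortical replicate 1 (0.0946). That call was also lost after TMM scaling of TPM (limma adjusted p = 0.0551). Lemd2 passed the count filter only through its diencephalic counts. The nuclear pore gene Nup153 was 1.36-fold higher (edgeR adjusted p = 0.0323). Leaving out diencephalon replicate 3 (0.184) or any 1 cortical library (0.0709, 0.0660 and 0.0573) removed the call, as it was removed with DESeq2 (0.0722) and with the length trend removed (edgeR adjusted p = 0.0904). After TMM scaling of TPM Nup153 did not pass either (limma adjusted p = 0.101). Of 5 lamin processing enzymes 4 were tested and none passed. The protease gene Zmpste24, whose product completes lamin A maturation, was at 67.7 ± 11.0 against 64.5 ± 3.70 CPM.

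Of 20 genes listed for the neuronal axonal cytoskeleton 19 were tested, 5 were higher, 6 lower and 8 did not pass. The share called was 57.9%, beside 29.6% of all genes. Kif5a, a kinesin that carries neurofilaments along axons, was 2.48-fold lower in diencephalon, at 688 ± 82.9 against 1705 ± 258 CPM. The tubulin gene Tubb2b was 2.26-fold lower. Tubb3, the neuronal tubulin, was 2.17-fold higher, at 20.7 ± 2.41 against 9.53 ± 0.512 CPM, and Dpysl3, a growth cone protein gene, 2.04-fold higher, at 211 ± 20.5 against 104 ± 17.7 CPM. These 4 calls held under each of the 18 alternatives, so genes of this list passed in both directions while Nefl, Nefm and Nefh did not pass.

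Of 16 reactive astrocyte genes 7 were tested, 3 were lower and none higher, with a median log2 difference of -1.06. Osmr, the oncostatin M receptor gene, was 3.35-fold lower (5.06 ± 3.47 against 17.5 ± 4.31 CPM, edgeR adjusted p = 0.00184), and Cp, which encodes ceruloplasmin, 2.83-fold lower (14.2 ± 2.62 against 40.3 ± 8.80 CPM). Osmr passed the count filter only through its cortical counts. Cd44, a hyaluronan receptor gene, was 2.08-fold lower (edgeR adjusted p = 0.0102), a call lost with deposited TPM (limma adjusted p = 0.131), and lost without diencephalon replicate 3 (edgeR adjusted p = 0.0567) or cortical replicate 2 (0.0628). After TMM scaling of TPM Cd44 did not pass either (limma adjusted p = 0.0773). Socs3, the fourth by p-value, was 2.22-fold lower and did not pass (edgeR adjusted p = 0.0994). It passed without diencephalon replicate 2 (0.0417) or cortical replicate 3 (0.0488). Serpina3n, which is strongly induced in reactive astrocytes, was at 118 ± 21.5 against 106 ± 20.3 CPM and was named after its values were seen. Lcn2 and Steap4 had no count in any library. C3, a complement gene of the same list that did not pass the count filter, was at 4.21, 3.69 and 9.93 CPM in diencephalon and without a count in the cortical libraries; it was also named after its values were seen. The summed level of all 16 genes was 284 to 316 CPM in diencephalon and 281 to 345 CPM in cortical grey matter, and overlapped. Cp, Osmr and Cd44 are not specific to astrocytes, and the vascular and meningeal sums given above were lower in the same libraries. The part of those cells in these differences was not tested.

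Genes with the profile most like a member were sought over the 6 libraries among 8772 genes with a mean of at least 10 CPM, by the root mean square difference of centred log2(CPM + 1). For Gfap these were Ndufb11, Itgb5 and Ppp2r5a, at 0.03, 0.08 and 0.08. For Vim they were Sod3, Fosl2 and Syne2, at 0.19, 0.20 and 0.22. For Nefm they were Nat10, Ankrd24 and Myo19, at 0.12, 0.12 and 0.18, each of them highest in cortical replicate 3 as Nefm was. With 6 libraries and this many genes such likeness is a description.

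**Figure D5:**
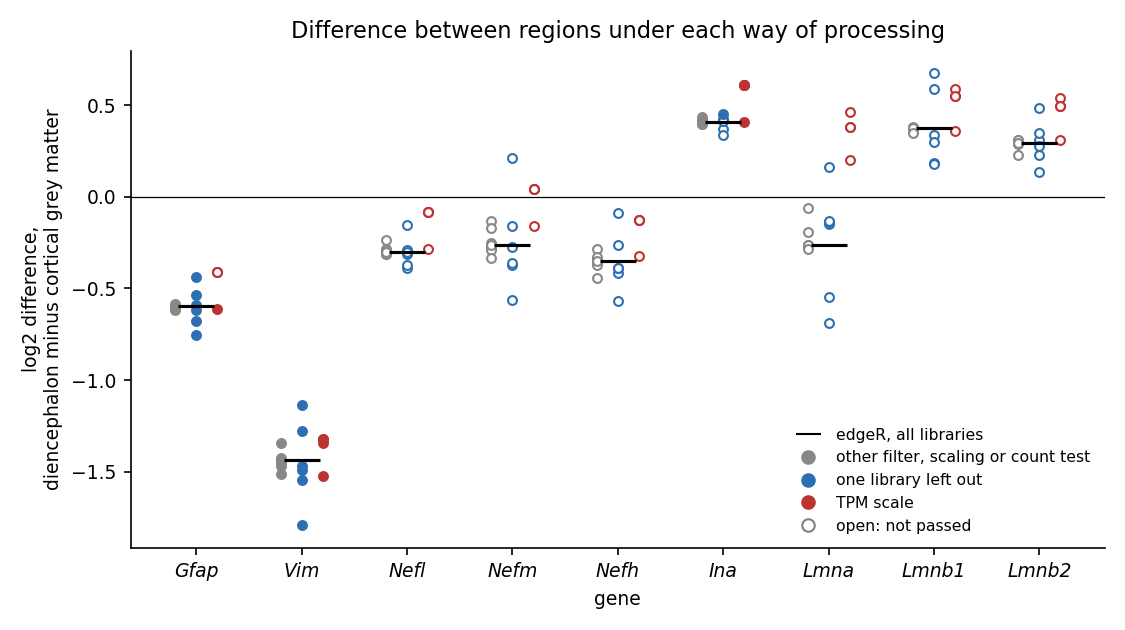
Log2 difference of each tested member, diencephalon minus cortical grey matter, under 18 alternatives (17 for the lamins); the black line is edgeR on all libraries, grey points other filters, scalings or count tests, blue points 1 library left out, red points TPM, and open points did not pass. Vim stays filled throughout, Gfap is open only on the deposited TPM scale, Ina is open under 6 alternatives, and Nefm and Lmna cross 0.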

How the data were processed

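Ribosome-bound mRNA was measured in 6 libraries, 3 per region. Per the labels' protocols, RNA was purified on columns, amplified with the Ovation system and sequenced on an Ion Proton instrument. Reads came from amplified cDNA without molecular identifiers and are not independent molecules, so intervals from counts leave out all but counting error. Per the labels, each replicate pooled 3 mice; whether libraries of the same number from the 2 regions came from the same mice is not stated there.

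RSEM and the build mm9 were used by the authors, per the submitters' processing notes. For the aligner, the versions and the strand, no statement was found: not given in the sources used here. The deposited expected counts are estimates of reads per gene, of which 3.64% to 3.99% per library were not whole. The deposited TPM values are scaled by effective length and library total. The deposited FPKM values were not used. The deposited gene lengths are averages over transcripts.

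Expected counts were rounded, filtered with filterByExpr (minimum count 10), scaled by TMM and fitted with edgeR 4.0.16 (quasi-likelihood, robust, region as the only term; limma 3.58.1, R 4.3.3), with Benjamini-Hochberg adjustment at 0.05 over all genes. SEs and 95% intervals come from the quasi-likelihood F statistic. Rn45s took 1.77% to 4.48% of counts and was kept. The scripts were tested on simulated counts. Alternatives were RLE factors, a minimum count of 30 or no filter, limma voom, DESeq2 1.42.0, a replicate block, TPM as log2(TPM + 1) or log2(TPM + 0.1) in limma above a mean TPM of 1, log2(TPM + 1) without that filter, Rn45s left out, a length trend removed (natural spline, 5 degrees of freedom) and each library left out. TMM scaling of TPM was added after seeing the data. Named genes were all members, up to 4 genes per related list with the smallest adjusted p, 3 genes closest in profile to Gfap, Vim and Nefm, and Slc1a3 and Rpl22. One gene that this rule names is not reported here. Marker lists are given as counts and sums. The members and lists were chosen with earlier results of these data known.

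Slc1a3, the gene that carries the recombinase, was at 747 ± 32.1 CPM in diencephalon and 1047 ± 270 CPM in cortical grey matter (edgeR adjusted p = 0.0244), a call lost without any 1 diencephalic library or cortical replicate 1 or 2 (0.0637 to 0.157) and on the TPM scale.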

Additional observations from a re-analysis of the deposited data

How the results depend on the processing

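Vim was lower and past the threshold under all 18 alternatives. Over the named genes and alternatives, 517 values kept direction and side of the threshold, 50 lost the call, 2 gained it and 17 changed sign; no gene that changed sign was past the threshold in either setting. On the deposited TPM scale, with log2(TPM + 1), log2(TPM + 0.1) and log2(TPM + 1) without a filter in that order, 958, 908 and 920 genes were lower against 1559 in counts, with 2118, 1991 and 1978 higher against 1574. There 68.9% of calls were higher, against 50.2% in counts, the number of lower members was 1 (Vim) in each, and that of lower related genes 6 in each against 14. After TMM scaling of TPM, 6 related genes were higher and 8 lower. With DESeq2, 0 members were higher. Leaving out 1 library gave 0 to 1 higher and always 2 lower members, 6 to 9 higher and 9 to 17 lower related genes. It gave 1145 to 1681 higher and 1186 to 1692 lower genes in all. For these counts the cause was not tested, apart from the scaling of TPM. After TMM scaling of TPM Gfap and Dtna passed again, while Dst, Syne2, Cd44 and Slc1a3 still did not. Fam83h, Lemd2 and Nup153, which passed with deposited TPM, lost the call there. For the genes that did not pass, limma adjusted p was 0.0551 to 0.128.

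Values that changed sign were those of Nefm (0.0402, 0.0411 and 0.0402 in the TPM settings, 0.21 without cortical replicate 3, -0.56 to 0.21 over single libraries left out), Lmna (0.38, 0.46 and 0.38 in the TPM settings, 0.20 after TMM scaling of TPM, 0.16 without cortical replicate 1, -0.69 to 0.16 over single libraries left out), Icmt (0.18, 0.19 and 0.18 in the TPM settings, 0.0032 without diencephalon replicate 1, 0.0345 and 0.0355 without cortical replicates 1 and 2, -0.136 at the lowest with a library left out) and Zmpste24 (-0.0016 with the length trend removed, -0.0458 without diencephalon replicate 1). Libraries with the same replicate number did not deviate together (r = 0.06, -0.10 and 0.0034 over genes), and not every library correlated best with its own number. With the replicate block, 1506 genes were higher and 1531 lower, the members called were Ina, Gfap and Vim as without it, and 10 related genes were higher and 14 lower. Members under about 15 CPM, the lamins and Nes, are limited by depth, and Nes and Lmna also by their spread between libraries.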
